A study of Homo sapiens with 6 samples.

Results

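The IgLON genes are a family of 5 neural cell adhesion genes, OPCML, NTM, LSAMP, NEGR1 and IGLON5. They were taken by symbol from a deposited table of 26902 genes, all 5 were found, and OPCML was singled out because of its large rise in these same libraries. The data are 6 RNA-seq libraries of the NRAS Q61K melanoma line HMCB, an established human line. The cells had been transfected with siRNA against AHCYL1 (siAHCYL1, 3 libraries) or with control siRNA (siNC, 3 libraries), and RNA was taken on day 3. Both groups are 1 cell line, carry the same NRAS mutation and went through transfection, and the labels do not say whether the AHCYL1 siRNA was a single sequence or a pool. The replicates are called biological without naming separate cultures, so p-values measure the spread between these libraries, which may be partly technical. The question behind the series is how AHCYL1, a protein that binds IP3 receptors of the endoplasmic reticulum, promotes proliferation of NRAS-mutant melanoma cells.

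IgLON proteins carry immunoglobulin domains and no transmembrane segment. A glycosylphosphatidylinositol (GPI) anchor holds them in the outer leaflet of the plasma membrane, where they bind one another within and across cells and guide neurite outgrowth and synapse formation. OPCML is also known as a tumour suppressor that is silenced by promoter methylation in ovarian and other cancers and that binds several receptor tyrosine kinases. LSAMP marks limbic neurons, NTM (neurotrimin) promotes or restrains neurite growth, NEGR1 is tied by human genetics to body weight, and IGLON5 is the target of autoantibodies in a neurological sleep disorder.

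The values are TPM (length-scaled transcript abundance), which divide by transcript length and scale each library to the same total, so that sequencing depth is unknown. AHCYL1 itself had 11.9 ± 1.39 TPM in siAHCYL1 libraries and 138 ± 10.2 TPM in siNC libraries (SD, n = 3 each). Between 13035 and 13189 genes reached 1 TPM per library. A gene entered the limma test on log2(TPM + 1) if 3 or more of the 6 libraries reached 1 TPM, and a gene counted as changed at a Benjamini-Hochberg adjusted p under 0.05. Of the 13266 genes that entered, 51.6% changed, with 30.4% higher and 21.2% lower in siAHCYL1, and the median log2 fold change was 0.06. The groups did not overlap in 59.2% of these genes. Under quantile normalization the split was 3471 higher and 3743 lower, against 4030 and 2814 as reported here. In these bulk samples, fewer cells of a kind and less RNA per cell cannot be told apart.

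OPCML spans 1117.5 kb of chromosome 11 on the minus strand (GRCh38, chr11:132414977-133532519, GENCODE 29), and exons cover 0.679% of that span. It has 2 promoters in RefSeq, an outer one and an inner one, and a gene-level TPM adds transcripts from both. Their windows of 300 bases, from 250 before to 50 after the start, are shown with that of IGLON5 because these genes moved in opposite directions. Capitals mark CG dinucleotides, the sites of DNA methylation, and all are RefSeq sequences of GRCh38.p14 written 5′ to 3′ on the gene's strand. RefSeq starts can differ from those of GENCODE 29, and the IGLON5 window ends before the GENCODE start at 51311848.
OPCML outer start, chr11:133532452-133532751, minus strand: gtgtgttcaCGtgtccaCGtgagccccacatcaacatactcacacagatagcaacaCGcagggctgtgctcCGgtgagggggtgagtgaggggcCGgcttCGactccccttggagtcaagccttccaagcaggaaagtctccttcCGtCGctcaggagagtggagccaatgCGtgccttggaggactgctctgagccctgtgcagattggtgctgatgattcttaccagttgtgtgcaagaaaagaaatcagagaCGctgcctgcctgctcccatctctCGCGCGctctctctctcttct
OPCML inner start, chr11:132943787-132944086, minus strand: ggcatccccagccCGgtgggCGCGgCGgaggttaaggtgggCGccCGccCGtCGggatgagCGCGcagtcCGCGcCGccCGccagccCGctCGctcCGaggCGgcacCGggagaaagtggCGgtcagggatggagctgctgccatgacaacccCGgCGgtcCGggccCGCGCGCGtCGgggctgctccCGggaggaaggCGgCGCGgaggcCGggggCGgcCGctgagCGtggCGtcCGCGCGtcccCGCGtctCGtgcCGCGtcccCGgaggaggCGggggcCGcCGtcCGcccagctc
IGLON5 start, chr19:51311394-51311693, plus strand: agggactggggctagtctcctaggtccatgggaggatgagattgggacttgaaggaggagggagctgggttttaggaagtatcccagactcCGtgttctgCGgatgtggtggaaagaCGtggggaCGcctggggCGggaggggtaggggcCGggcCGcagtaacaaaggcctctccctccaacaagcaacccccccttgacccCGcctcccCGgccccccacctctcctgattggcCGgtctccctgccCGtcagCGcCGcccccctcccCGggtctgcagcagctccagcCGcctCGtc
The inner OPCML window was a dense CpG sequence, with 50 CG dinucleotides and 80.0% GC. Only 1.3% of 34941 promoter windows of the same length held as many. The outer window had 13 CG and the IGLON5 window 16, near the median of 14 over all windows. The outer window also held CACGTG at 2 places, a palindromic E-box hexamer to which MITF, the melanocyte lineage factor, and MYC are known to bind. CACGTG occurred in 7.23% of all windows and at 2 or more places in 0.66%. It was not found in the inner OPCML window, in the IGLON5 window, in the 5 windows of NTM or in the LSAMP window. The single LSAMP window (chr3:116445438-116445737) lies inside the gene span, so the outer LSAMP start at 117139389 was not looked at. Of the IgLON genes 4 of 5 matched the promoter table. The CG and CACGTG matches are letters in a window, and no binding or methylation was measured.

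OPCML was high in every siAHCYL1 library and low in every siNC library. It had 25.6, 23.03 and 23.35 TPM in siAHCYL1 libraries, against 0.94, 1.75 and 1.53 TPM in siNC libraries. The groups were far apart, and the libraries within siAHCYL1 lay close together, with a coefficient of variation of 5.84%, against 29.8% in siNC. The mean was 24.0 ± 1.40 TPM in siAHCYL1 and 1.41 ± 0.42 TPM in siNC (SD, n = 3 each), a ratio of 17.1. Over single pairs of libraries the ratio lay between 13.2 and 27.2. On the log2(TPM + 1) scale the difference was 3.39, number 7 of the 13266 genes by size of rise. OPCML was chosen for this difference, so these values describe it and carry no test. Of 1033 genes tested with a siNC mean under 2 TPM, 2 had a siAHCYL1 mean of at least 20 TPM, OPCML and the noncoding RNA SNHG9, which was listed at 0 in siNC. These limits lie close to the means of OPCML, which was chosen for its rise. Its place in this count was therefore given in advance and is no measure of rarity.

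**Figure D1:**
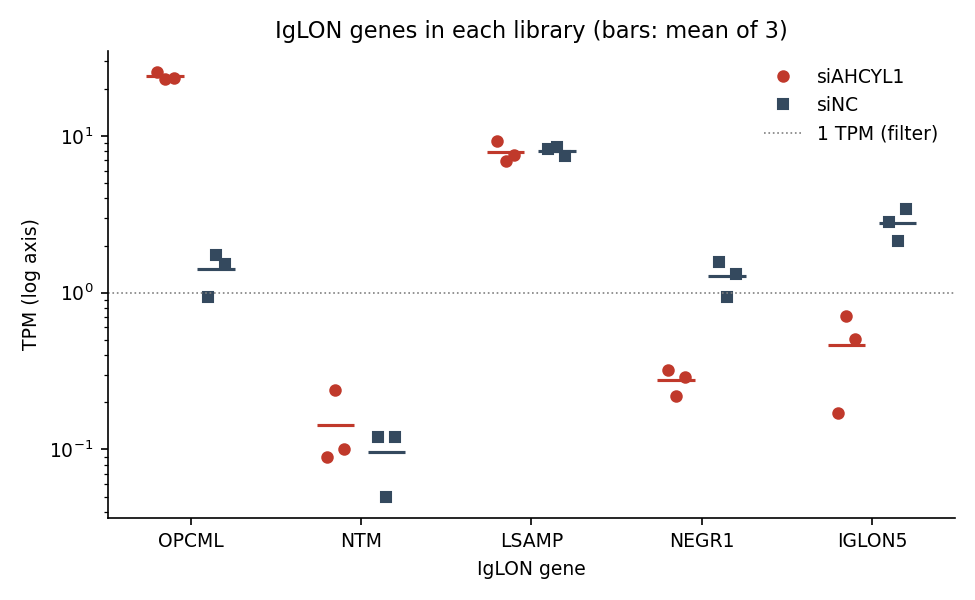
TPM of each IgLON gene in each library, on a log axis, with siAHCYL1 libraries as circles, siNC libraries as squares, bars at the mean of 3 and a dotted line at the 1 TPM used to filter. OPCML lies between 23.03 and 25.6 TPM in siAHCYL1 and at or under 1.75 TPM in siNC, LSAMP overlaps between the groups, and IGLON5 and NEGR1 are lower in siAHCYL1.

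IGLON5 went the other way. This gene spans only 18.5 kb of chromosome 19 on the plus strand (GRCh38, chr19:51311848-51330354), and IGLON5 had 0.17, 0.71 and 0.51 TPM in siAHCYL1 libraries, against 2.84, 2.13 and 3.4 TPM in siNC libraries. Every siAHCYL1 library lay below 1 TPM and every siNC library above 2, with no overlap. IGLON5 fell, with a log2 fold change of -1.38 (SE 0.212, 95% interval -1.85 to -0.90, limma adjusted p = 0.000589), and its mean was 6.02-fold lower in siAHCYL1. IGLON5 reached 1 TPM in 0 siAHCYL1 and 3 siNC libraries, so it entered this test only through the group in which it was high, and the call is to be read with that. With no filter, where 37.3% of 18129 genes changed and 15.7% were lower, its limma adjusted p was 0.00149.

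NEGR1 had 0.32, 0.22 and 0.29 TPM in siAHCYL1 libraries, against 1.58, 0.94 and 1.32 TPM in siNC libraries. The highest siAHCYL1 library was below the lowest siNC library, and the mean was 4.63-fold lower in siAHCYL1. NEGR1 lies on chromosome 1, minus strand (GRCh38, chr1:71395940-72282734, 886.8 kb). It reached 1 TPM in 2 libraries where 3 were needed and was not tested in the filtered table. With no filter, its log2 difference was -0.83 (SE 0.123, limma adjusted p = 0.00214). The antisense gene ZRANB2-AS2 covers at least 1 NEGR1 exon on the other strand, and these libraries do not keep strand. That gene had 0.48, 1.07 and 0.3 TPM in siAHCYL1 libraries, against 0.22, 0.26 and 0 TPM in siNC libraries, the opposite order to NEGR1.

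LSAMP had overlapping levels in siAHCYL1 and siNC. LSAMP lies on chromosome 3, minus strand (GRCh38, chr3:115802363-117139389, 1337.0 kb), the longest of the 5 gene spans. It had 9.28, 6.95 and 7.52 TPM in siAHCYL1 libraries, against 8.27, 8.49 and 7.4 TPM in siNC libraries, and the groups overlapped. LSAMP did not pass (log2 fold change -0.03, SE 0.130, limma adjusted p = 0.871), with a 95% interval of -0.32 to 0.26. Leaving out replicate 2 of either group turned the sign, to 0.050 without siAHCYL1 replicate 2 and 0.0064 without siNC replicate 2.

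NTM lies beside OPCML on chromosome 11 (GRCh38, chr11:131370478-132336822, plus strand), and 78.2 kb separate the ends of these gene bodies, which run towards each other. It had 0.09, 0.24 and 0.1 TPM in siAHCYL1 libraries, against 0.12, 0.05 and 0.12 TPM in siNC libraries. No library came near 1 TPM, the groups overlapped, and NTM was not tested.

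The make-up of IgLON RNA was mostly OPCML in siAHCYL1 and mostly LSAMP in siNC. Added over the 5 genes, IgLON RNA was 32.8 ± 2.33 TPM in siAHCYL1 and 13.6 ± 0.231 TPM in siNC (SD, n = 3 each). OPCML held 73.2 ± 0.905% of that sum in siAHCYL1 and 10.3 ± 3.20% in siNC. LSAMP held 24.1 ± 1.96% in siAHCYL1 and 59.1 ± 4.98% in siNC, and IGLON5 held 1.45 ± 0.909% in siAHCYL1 and 20.4 ± 4.38% in siNC. Without OPCML the other 4 genes summed to 8.80 ± 0.930 TPM in siAHCYL1 and 12.2 ± 0.600 TPM in siNC. These sums follow from the values above, including the one OPCML was chosen for, and are not tested.

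**Figure D2:**
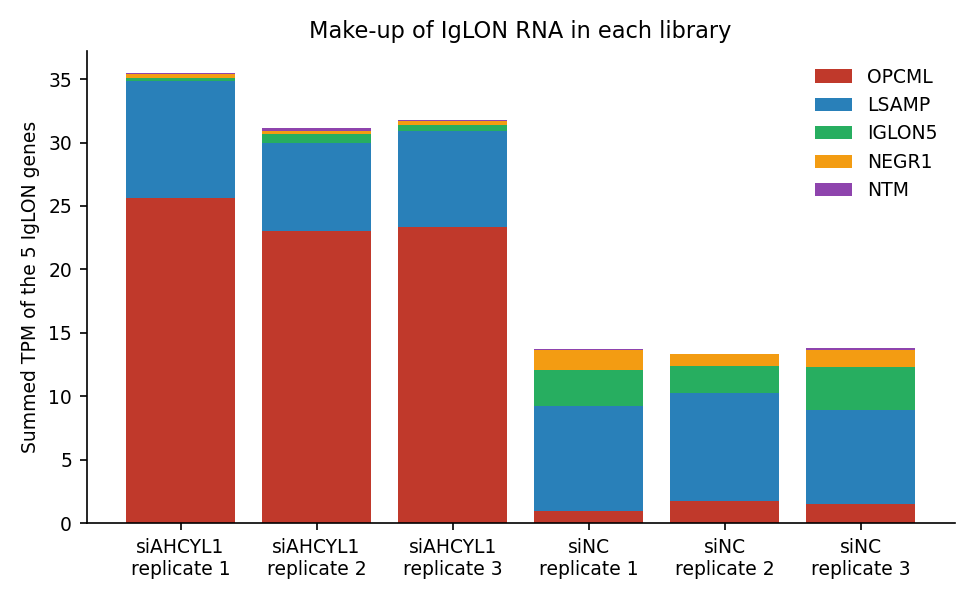
Stacked bars of the summed TPM of the 5 IgLON genes in each library, coloured by gene, with the siAHCYL1 libraries on the left. OPCML makes up between 72.2% and 73.9% of each siAHCYL1 bar, and LSAMP makes up between 53.7% and 63.5% of each siNC bar.

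By mean TPM, which is per length and so can be set side by side between genes, the order in siAHCYL1 was OPCML, LSAMP, IGLON5, NEGR1, NTM. The order in siNC was LSAMP, IGLON5, OPCML, NEGR1, NTM. In siAHCYL1 the ranges of IGLON5 and NEGR1 overlapped, as did those of NEGR1 and NTM, and in siNC those of OPCML and NEGR1 did. The other neighbours in each order did not overlap. Among 32 immunoglobulin adhesion genes, the IgLON genes with 2 lists of NCAM, L1, contactin, CADM, nectin and similar genes, OPCML was number 8 by mean TPM in siAHCYL1 and number 23 in siNC. LSAMP was number 16 in both groups. For scale, NCAM1, the neural cell adhesion molecule, had 22.1 ± 2.55 TPM in siAHCYL1 and 21.5 ± 0.960 TPM in siNC.

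The 5 genes whose profile over the 6 libraries was most like that of OPCML were HECTD2-AS1, SLC9A3, ENPP2, NEUROG2 and TPSAB1. Likeness was the root mean square difference of log2(TPM + 1) after subtracting each gene's siNC mean, and it ran from 0.17 for HECTD2-AS1 to 0.25 for TPSAB1. ENPP2, the enzyme autotaxin that makes lysophosphatidic acid, had 272.69, 235.58 and 218.41 TPM in siAHCYL1 libraries, against 25.33, 29.55 and 24.78 TPM in siNC libraries. NEUROG2, a neurogenic transcription factor, had 70.48, 93.95 and 91.27 TPM in siAHCYL1 libraries, against 5.19, 8.6 and 10.3 TPM in siNC libraries. SLC9A3, a sodium-proton exchanger, was 9.70-fold higher by ratio of means, and TPSAB1, a mast cell tryptase gene with near-identical copies, was 9.02-fold higher. HECTD2-AS1 is antisense to another gene. With 2 groups of 3, such likeness reflects mainly the size of the group difference, and the genes were picked by it.

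Besides ZRANB2-AS2, each transcript of the table that overlaps an IgLON gene body was listed at 0 in all 6 libraries, LINC00901, MIR4447 and TUSC7 inside LSAMP among them. Of 7 transcripts inside or antisense to them that were looked for, 4 were in the table (NTM-AS1, NTM-IT, LSAMP-AS1 and NEGR1-IT1) and belong to these. Earlier work on these libraries had picked GTATGCA as the 7-mer of 3′ UTRs most associated with lower genes and TCGGAGA as that of higher genes. Neither occurred in any 3′ UTR of the 5 IgLON genes in the basic set of GENCODE 29 (between 1 and 6 transcripts per gene). Coding transcripts outside that set were not searched. Of 12214 tested genes with a 3′ UTR, 9.49% carried GTATGCA, and 37.4% of the carriers were lower against 20.7% of the other genes. For TCGGAGA, 2.47% were carriers, and 45.0% of these were higher against 29.9% of the other genes. Both 7-mers were picked by this association in the same libraries, so these contrasts follow from the choice and are no separate result.

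Genes around OPCML changed in both directions. Of 14 genes of the table within 1 Mb of OPCML, other than NTM, 8 were tested, 4 rose and 2 fell, 75% beside 51.6% of all genes, with a median log2 fold change of 0.27 beside 0.06 over all genes. JAM3, a junctional adhesion gene 536.4 kb away, fell to 107 ± 6.61 TPM in siAHCYL1, against 179 ± 3.07 TPM in siNC (log2 fold change -0.75, limma adjusted p = 2.06e-05). IGSF9B, an adhesion gene of inhibitory synapses and the nearest tested neighbour at 376.0 kb, fell to 0.457 ± 0.0321 TPM in siAHCYL1, against 1.41 ± 0.146 TPM in siNC (-0.73). It passed the filter only through siNC, and with no filter its limma adjusted p was 0.00116. B3GAT1, the enzyme that makes the HNK-1 carbohydrate carried by neural adhesion proteins, rose to 98.3 TPM in siAHCYL1, against 56.4 TPM in siNC (0.79, limma adjusted p = 1.39e-05). ACAD8, a mitochondrial acyl-CoA dehydrogenase, rose (0.66), as did VPS26B, a retromer subunit (0.32), and NCAPD3, a condensin subunit (0.30). NCAPD3 lost its call without siNC replicate 2 (adjusted p = 0.0514), and THYN1 and GLB1L2 did not pass. JAM3, NCAPD3 and VPS26B overlap at their ends on opposite strands, so reads there cannot be told apart. On the far side of NTM, the sorting nexin gene SNX19 rose (0.34) and ADAMTS15 did not pass.

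**Figure D3:**
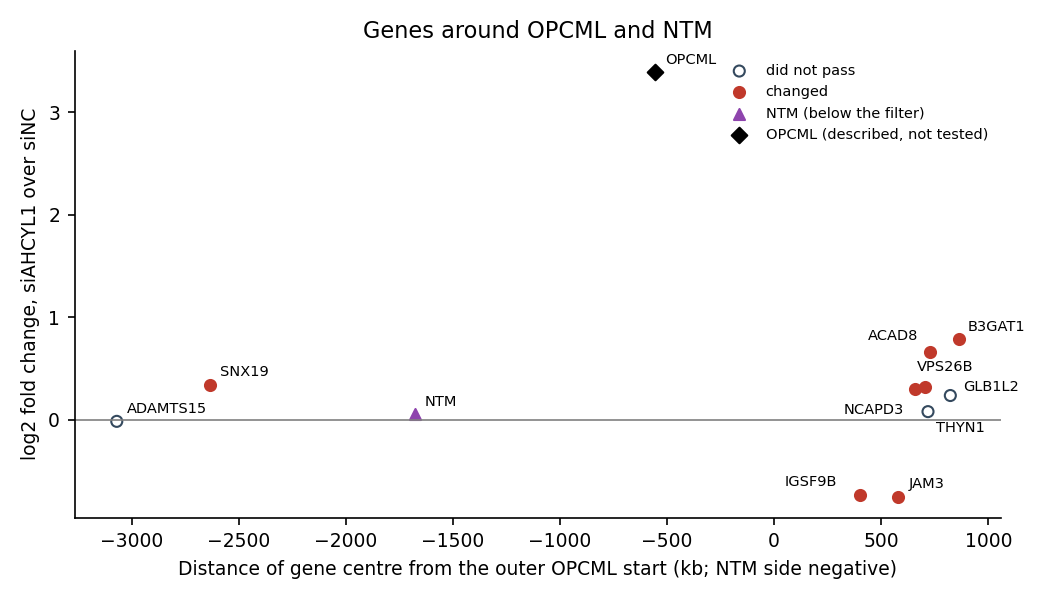
Log2 fold change of siAHCYL1 over siNC on the log2(TPM + 1) scale against the distance in kb of each gene's centre from the outer OPCML start, for tested genes within 1 Mb of OPCML or NTM and for these 2 genes. OPCML stands at 3.39, and the tested neighbours lie between -0.75 for JAM3 and 0.79 for B3GAT1.

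Around the other members, ZBTB20 was the single tested gene near LSAMP and did not pass (0.29, limma adjusted p = 0.10). Near NEGR1, ZRANB2, ZRANB2-AS1 and CTH did not pass. Near IGLON5, 29 of 85 genes were tested, 10 rose and 4 fell, 48.3% beside 51.6% of all genes. VSIG10L, on the minus strand with its 3′ end 1.2 kb from the end of IGLON5, rose (0.58, limma adjusted p = 0.0108) and lost its call without replicate 1 of both groups (adjusted p = 0.0551). ETFB, an electron transfer flavoprotein gene 14.8 kb away, did not pass (0.18, limma adjusted p = 0.0534) and passed with the replicate block, at a filter of 5 TPM and without siAHCYL1 replicate 1 (adjusted p = 0.00859, 0.0494 and 0.00723). ETFB also passed without replicate 1 of both groups (adjusted p = 0.00525). LRRC4B, a synaptic adhesion gene 743.8 kb away, rose to 130 ± 4.35 TPM in siAHCYL1, against 52.0 ± 1.10 TPM in siNC (1.30). The 4 that fell were KLK6 (-0.53), ZNF613 (-0.58), ZNF614 (-0.71) and ZNF432 (-0.45). ZNF432 lost its call under each of 5 single omissions, of siAHCYL1 replicates 1 and 3 and of each siNC replicate (adjusted p from 0.0576 to 0.112).

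IgLON proteins reach the cell surface through GPI anchors, and several genes that build and attach the anchor changed. Of 18 anchor synthesis genes, all tested, 9 rose and 3 fell, 66.7% beside 51.6% of all genes tested, of which 30.4% were higher and 21.2% lower. The median log2 fold change of these 18 was 0.31, beside 0.06 over all genes. PIGA, the catalytic subunit of the first step, had 3.35, 4.26 and 3.46 TPM in siAHCYL1 libraries, against 11.75, 10.07 and 10.68 TPM in siNC libraries. PIGA fell by 1.34 on the log2 scale (SE 0.128, limma adjusted p = 3.63e-05), against the direction of most of its list, and PIGH (-0.37), of the same complex, fell too. Of the other genes of that complex, PIGC, PIGP, PIGQ and PIGY did not pass and DPM2 rose. PIGG (-0.23) fell and lost its call without any 1 of the siAHCYL1 replicates 1 to 3 or of siNC replicates 2 and 3 (adjusted p from 0.0531 to 0.147). PIGG also lost it with no intensity trend and robust moderation (adjusted p = 0.0508). Among those that rose were the mannosyltransferase genes PIGV (0.91) and PIGM (0.58), and DPM2 (0.43).

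The GPI transamidase, which cuts the protein and joins it to the anchor, has 5 subunit genes, of which 3 rose and 1 fell, 80% beside 51.6% of all genes. GPAA1 rose to 340 ± 15.7 TPM in siAHCYL1, against 171 ± 4.48 TPM in siNC (0.98, limma adjusted p = 2.75e-06). PIGU rose to 74.8 ± 3.77 TPM in siAHCYL1, against 36.9 ± 6.68 TPM in siNC (1.01), and PIGS rose by a log2 fold change of 0.67. PIGT had 116 ± 16.2 TPM in siAHCYL1 and 110 ± 0.724 TPM in siNC and did not pass (0.07, limma adjusted p = 0.545). PIGK, the catalytic subunit, fell (-0.35, limma adjusted p = 0.0280). PIGK lost that call with no filter (adjusted p = 0.0542) and with no intensity trend and robust moderation (0.0510). It also lost the call without siAHCYL1 replicate 2 or 3 or siNC replicate 1 or 2 (adjusted p from 0.0723 to 0.0956). Of 10 tested genes of anchor remodelling, export and release, 4 rose, 40% changed beside 51.6% of all genes and 30.4% higher. They were the lipid remodelling genes PGAP3 (1.14) and PGAP2 (0.56), the phosphodiesterase gene MPPE1 (0.81) and TMEM8A (0.71), also called PGAP6.

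Genes that cut proteins from the cell surface or hold such cutting in check went both ways, with 3 of 9 tested higher and 5 lower, 88.9% beside 51.6% of all genes. RECK, itself a GPI-anchored inhibitor of matrix metalloproteases, had 1.59, 1.32 and 1.73 TPM in siAHCYL1 libraries, against 14.47, 14.19 and 13.37 TPM in siNC libraries. RECK fell by 2.56 on the log2 scale (limma adjusted p = 9.05e-07), and MMP2, a gelatinase, fell by 2.43. MMP14, the membrane-bound protease that activates MMP2, rose to 833 ± 52.0 TPM in siAHCYL1, against 424 ± 14.1 TPM in siNC (0.97). The inhibitor genes TIMP1 (0.53) rose and TIMP2 (-0.51) and TIMP3 (-0.72) fell, and TIMP3 passed the filter only through siNC. ADAM17, a sheddase of many surface proteins, fell (-0.70), and ADAM10, which is reported in mouse neurons to release NEGR1, did not pass (-0.10, limma adjusted p = 0.292). ADAM9 rose (0.28) and lost its call under quantile normalization (adjusted p = 0.0562), with no filter (0.0603), and with no intensity trend and robust moderation (0.0701). It also lost the call without siAHCYL1 replicate 1 or 2 or siNC replicate 2 or 3 (adjusted p from 0.0614 to 0.101).

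**Figure D4:**
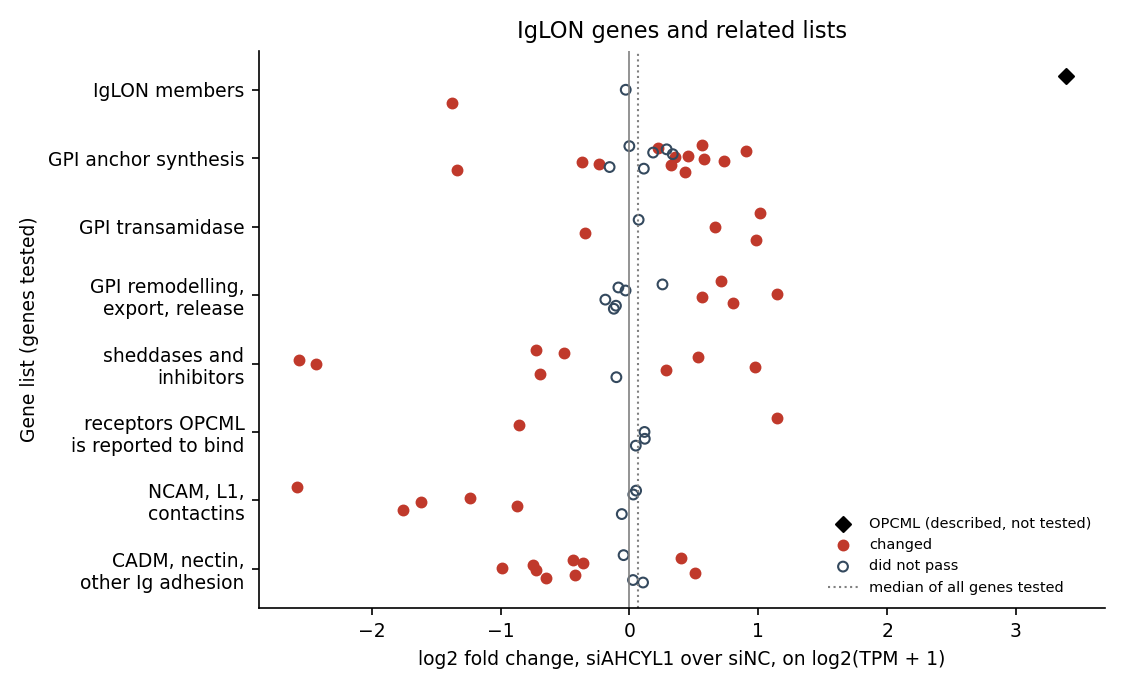
Log2 fold change of siAHCYL1 over siNC on the log2(TPM + 1) scale for the tested IgLON genes and the tested genes of related lists, filled where the gene changed, with OPCML as a diamond and a dotted line at the median of all genes. OPCML lies at 3.39, to the right of every listed gene, and NRCAM (-2.58) and RECK (-2.56) lie farthest to the left.

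Of 6 receptor tyrosine kinases that OPCML is reported to bind, 5 were tested, 1 rose and 1 fell, 40% beside 51.6% of all genes. FGFR3 rose to 55.6 ± 3.59 TPM in siAHCYL1, against 24.6 ± 1.23 TPM in siNC (1.14, limma adjusted p = 6.34e-06). FGFR1 fell to 60.6 ± 2.53 TPM in siAHCYL1, against 111 ± 6.42 TPM in siNC (-0.86, limma adjusted p = 1.47e-05). ERBB2 had 81.1 ± 3.77 TPM in siAHCYL1 and 74.7 ± 3.81 TPM in siNC and did not pass (limma adjusted p = 0.189). EPHA2 had 191 ± 2.40 TPM in siAHCYL1 and 176 ± 4.03 TPM in siNC and did not pass (limma adjusted p = 0.0977). AXL had 22.5 ± 1.92 TPM in siAHCYL1 and 21.6 ± 0.527 TPM in siNC and did not pass (limma adjusted p = 0.674). The sign for AXL (0.05) flipped under median-of-ratios scaling and quantile normalization and without siAHCYL1 replicate 3. ERBB4, at 0.09 ± 0.0529 TPM in siAHCYL1 and 0.543 ± 0.0808 TPM in siNC, was below the filter. Of 8 tested genes from the same receptor families outside that group, 3 rose and 3 fell, 75% beside the same 51.6%. These were ERBB3 (0.35), EPHA5 (0.51) and MERTK (0.25) up and FGFR2 (-1.36), EPHA7 (-0.74) and FGFR4 (-0.38) down. MERTK lost its call under quantile normalization (adjusted p = 0.0651) and without siAHCYL1 replicate 1 or 2 or siNC replicate 2 or 3 (adjusted p from 0.0616 to 0.0897).

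In the NCAM, L1 and contactin families, which are other neural adhesion genes of the immunoglobulin superfamily, 5 of 8 tested genes fell and the other 3 did not pass, 62.5% changed beside 51.6% of all genes and 21.2% lower. The median log2 fold change was -1.05, beside 0.06 over all genes. NRCAM, of the L1 family, had 14.74, 10.0 and 10.65 TPM in siAHCYL1 libraries, against 76.69, 74.5 and 71.98 TPM in siNC libraries (-2.58, limma adjusted p = 1.01e-06). The GPI-anchored contactin genes CNTN1 (-1.75), CNTN4 (-1.62) and CNTN3 (-0.87) fell, as did L1CAM (-1.24). CNTN3 passed the filter only through siNC. CNTN1, for example, had 1.18 ± 0.251 TPM in siAHCYL1 and 6.37 ± 0.833 TPM in siNC. At a filter of 5 TPM, 3 of these were tested and lower, NRCAM, CNTN1 and CNTN4. At that filter CNTN1 and CNTN4 entered only through siNC, the group in which they were high. Of 12 tested CADM, nectin and other immunoglobulin adhesion genes, 7 fell and 2 rose, 75% beside 51.6% of all genes, with a median of -0.39. Besides JAM3 and IGSF9B, which also lie near OPCML, CADM1 (-0.65) and the melanoma adhesion gene MCAM (-0.36) fell, and F11R (0.51) and NECTIN2 (0.40) rose.

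Because OPCML is known to be silenced by promoter methylation, 8 DNA methylation and demethylation genes were listed, of which 7 were tested. Of these, 3 fell, the de novo methyltransferase genes DNMT3A (-0.40) and DNMT3B (-0.39) and the demethylation enzyme gene TET1 (-0.56), or 42.9% beside 51.6% of all genes. DNMT3A lost its call without replicate 2 of either group, DNMT3B without siAHCYL1 replicate 2 and without siNC replicates 1 or 3, and TET1 without siAHCYL1 replicates 2 or 3 and without siNC replicates 1 or 2 (adjusted p from 0.0511 to 0.0771). DNMT3B also lost it without replicate 1 of both groups (adjusted p = 0.0590). DNMT1, UHRF1, TET2 and TET3 did not pass.

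The label of a melanoma cell line was set against lineage markers. SOX10, the neural crest and melanocyte factor, had 1009 ± 16.9 TPM in siAHCYL1 and 1037 ± 12.3 TPM in siNC, MITF had 9.72 ± 1.42 TPM in siAHCYL1 and 10.99 ± 1.46 TPM in siNC, and the pigment enzyme gene TYR was listed at 0 in all 6 libraries. Of 5 tested melanocytic markers, 60% changed, beside 51.6% of all genes. The pigment gene DCT fell (-3.23), after passing the filter only through siNC, and PMEL (0.64) and TYRP1 (0.87) rose. PMEL lost its call with no filter (limma adjusted p = 0.0636, against 0.0484). The number of these markers that rose was 1 in place of 2 with a pseudocount of 0.1, with no filter, under both other scalings and without siAHCYL1 replicate 1, 2 or 3 or siNC replicate 2 or 3. Since the IgLON genes are neural, neuron and glia markers were also listed. Of 14 neuron markers, 4 were tested and 1 fell, SYT1 (-0.85), 25% beside 51.6% of all genes. DCX and GAP43 were listed at 0 throughout. MAP2 had 5.27 ± 0.938 TPM in siAHCYL1 and 6.33 ± 0.430 TPM in siNC and did not pass. STMN2, at 2.1 ± 0.607 TPM in siAHCYL1 and 1.8 ± 0.961 TPM in siNC, did not pass either. The summed level of the 14 neuron markers was between 531 and 547 TPM in siAHCYL1 and between 545 and 573 TPM in siNC, nearly all from TUBB3. Among glia markers, the myelin gene MOBP had 1.77 ± 0.180 TPM in siAHCYL1 and 0.450 ± 0.166 TPM in siNC (0.94, limma adjusted p = 0.00213), and it passed the filter only through siAHCYL1. The astrocyte genes AQP4 and SLC1A2 were listed at 0 in all 6 libraries. The part of neuron and glia markers in the IgLON results was not tested.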

How the data were processed

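RNA was measured in 6 libraries of HMCB cells, 3 with siRNA against AHCYL1 and 3 with control siRNA. The authors deposited 1 table of TPM values with no counts. The tools STAR and RSEM and the build GRCh38 are named per the submitters' processing notes, with versions and annotation not given in the sources used here. Per the labels' protocols, the libraries were non-directional. Control columns carry the prefix nc, and the prefix si was assigned to the 1 other group.

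From these values, log2(TPM + 1) was fitted with limma 3.58.1 in R 4.3.3 (intensity trend, group as the single term, two-sided, Benjamini-Hochberg over 13266 genes) and tested on simulated data. Differences are siAHCYL1 minus siNC and understate the change of low genes. The members, gene lists and tests were chosen with earlier results of these data known. Genes named are the members, AHCYL1, list members with the smallest adjusted p or against their list, every gene of short lists or counts of up to 5, neighbours within 1 Mb and the 5 most like OPCML. ADAM10, ADAM17, NCAM1, LRRC4B, ETFB and lineage markers were added after their values were seen. Alternatives were pseudocount, filter, scaling, moderation, replicate block and omission of libraries. Positions are from GENCODE 29, 3′ UTRs from its basic set and promoters from RefSeq. Some glia markers, and the count and summed level of that list, are not reported here.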

Additional observations from a re-analysis of the deposited data

How the results depend on the processing

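OPCML had log2 differences from 3.20 to 3.49 when libraries were left out, 3.33 under median-of-ratios scaling, 3.34 under quantile normalization and 4.04 with a pseudocount of 0.1. IGLON5 had -1.51 to -1.21 with libraries left out and -2.48 with a pseudocount of 0.1, and at 5 TPM it was not tested. These fits, apart from the one with no filter, share its entry through siNC alone. NEGR1 had -1.85 and NTM 0.28 with a pseudocount of 0.1, which moves low genes by its construction. LSAMP did not pass in any fit, with values from -0.14 to 0.050 when libraries were left out. AHCYL1 ranged from -3.54 to -3.38. Changed genes numbered 6844 as reported and 5672 to 7919 in the refits. Of 82 tested genes of the related lists, 53 changed as reported, 64.6% beside 51.6% of all genes, and 44 to 56 did in the refits.

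AXL changed sign under median-of-ratios scaling (-0.017) and quantile normalization (-0.039), and ranged from -0.0090 to 0.11 with libraries left out. PIGT changed sign under quantile normalization (-0.035) and without replicate 1 of both groups (-0.033), and ranged from -0.038 to 0.14 with libraries left out. The cause was not tested. Under quantile normalization VPS26B, ADAM9 and MERTK lost their calls (adjusted p = 0.0518, 0.0562 and 0.0651), and under both other scalings ADAM10 gained one (0.0398 and 0.0190). The replicate numbers are not shown to pair the libraries: same-numbered libraries deviated together with correlations of 0.233, 0.001 and 0.154, and 2 of 3 libraries in each group correlated best with their own number. With the replicate block, 7919 genes changed, IGLON5 and LSAMP kept their sides of the threshold, and EPHA2 and ETFB passed (adjusted p = 0.0388 and 0.00859). Depth is unknown, so its limit on low genes such as NTM and NEGR1 could not be set.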
